A study of Mus musculus with 13 samples.

Results

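The genes of glutathione synthesis and use and of transsulfuration comprised Mat2a, Cbs, Cth, Slc7a11, Gclc, Gclm, Gss, Gsr, Gpx1 and Gpx4. These 10 of 49585 genes were chosen by name for their place in the pathway, with earlier results of these data known. All 10 had reads in each of the 13 libraries. The libraries held RNA of oocytes from ovaries of P5 CD-1 mice, in a series of 0.5 Gy and a series of 0.2 Gy from a caesium source. The authors describe 0 h as the time before irradiation, so the 0 h libraries of both series were unirradiated controls. All ovaries, including those of 0 h, had been cultured overnight in medium with serum, pyruvate, an insulin, transferrin and selenium supplement, and N-acetyl-L-cysteine, a precursor of cysteine. At each time from 0 to 6 h ovaries were dissolved with trypsin, oocytes were separated from follicular cells by centrifugation, and 4 ovaries were used for a time point. At 0.5 Gy, 2 libraries each were available at 0, 1 and 4 h, of which replicate 1 was labelled first generation and replicate 2 second generation, and 1 library each at 2.5 and 6 h, both second generation. At 0.2 Gy, 1 library was available at each of the 5 times, all labelled as the third generation, so that dose and generation cannot be told apart. No library of ovaries kept without irradiation to the later times was analysed here, and time in culture cannot be told apart from time after irradiation.

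In the methionine cycle, MAT2A makes S-adenosylmethionine, whose methyl transfer leaves homocysteine, and transsulfuration by CBS and CTH turns homocysteine into cysteine. Cysteine also enters the cell as cystine through SLC7A11, and glutamate-cysteine ligase (catalytic subunit GCLC, modifier subunit GCLM) and then glutathione synthetase (GSS) build the tripeptide glutathione from it. GPX1 and GPX4 spend glutathione on peroxides, GPX4 on those of membrane lipids, and GSR reduces the oxidized form again. Oocytes store glutathione while they grow and mature, and radiation produces peroxides that it helps to remove.

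The libraries held between 15709549 and 30430104 estimated reads, the fewest in replicate 2 of 0 h at 0.5 Gy. The summed level of 16 oocyte markers was 4510 to 7470 CPM (reads of a gene scaled to the size of the library), and none of them was at 0 in any library. Markers of other ovarian cells were present as well, with 1720 to 2780 CPM for 14 genes of granulosa cells, the follicular cells around the oocyte, and 2000 to 3890 CPM for 8 genes of stroma. The libraries thus held RNA of other ovarian cells beside that of oocytes. The 7 granulocyte markers summed to 443 CPM in replicate 2 of 0 h and to 5.50 to 16.1 CPM in the 12 others. Every value below is a share of a library, in which fewer cells of a type and less RNA per cell cannot be told apart.

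None of the 10 genes passed the test for a change with time, dose or generation in any of the 9 comparisons, by edgeR's quasi-likelihood test at a Benjamini-Hochberg adjusted p under 0.05 over all genes tested and an absolute log2 fold change over 1. DESeq2, as run here, called none of the 10 either. In the edgeR comparisons of each later time with 0 h no gene at all was called, so they say little about the 10. The authors, also with DESeq2, list Cbs among their differentially expressed genes, with a higher level before irradiation than after it. Here the log2 fold changes of Cbs against 0 h at 0.5 Gy had the same direction, between -1.63 and -1.08. Without replicate 1 of 0 h they were -0.76 at 1 h and -0.72 at 6 h. The reason for the difference in calls was not tested. In the late against early comparisons at both doses the largest differences were those of the transsulfuration genes Cbs and Cth. At 0.5 Gy, Cth was 1.98 times as high late as early and Gss 1.47 times, Slc7a11 and Gclm were at 0.753 and 0.739 times their early means, and none of these differences passed after adjustment. Cbs varied 13.7 times between its lowest and its highest library and Cth 13.1 times, and the other 8 genes between 1.53 and 2.66 times.

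Levels between genes were compared in TPM, a share of transcripts that corrects for length, as the median of the 13 libraries. Gpx4 stood highest with 492 TPM (range 300.0 to 685), followed by Mat2a with 145 TPM (80.5 to 175) and Gpx1 with 121 TPM (97.8 to 154). The lowest library of Gpx4 was above the highest of Mat2a, whereas the ranges of Mat2a and Gpx1 overlapped. These 3 genes exceeded 97.7% or more of the protein-coding genes with reads. The next gene, Gclm, was at 15.2 TPM (8.77 to 26.2), and its highest library was below the lowest of Gpx1.

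From Gclm down, the ranges of each gene and the next overlapped down to the lowest gene. Gss was at 7.77 TPM, Gsr at 4.09 TPM and Cbs at 2.98 TPM. Gclc was at 1.72 TPM, Slc7a11 at 1.30 TPM and Cth at 0.903 TPM (0.214 to 1.46). The modifier subunit of glutamate-cysteine ligase thus stood above the catalytic subunit, and the transporter and the last enzyme of transsulfuration had the lowest medians in this sum over all transcripts.

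**Figure D1:**
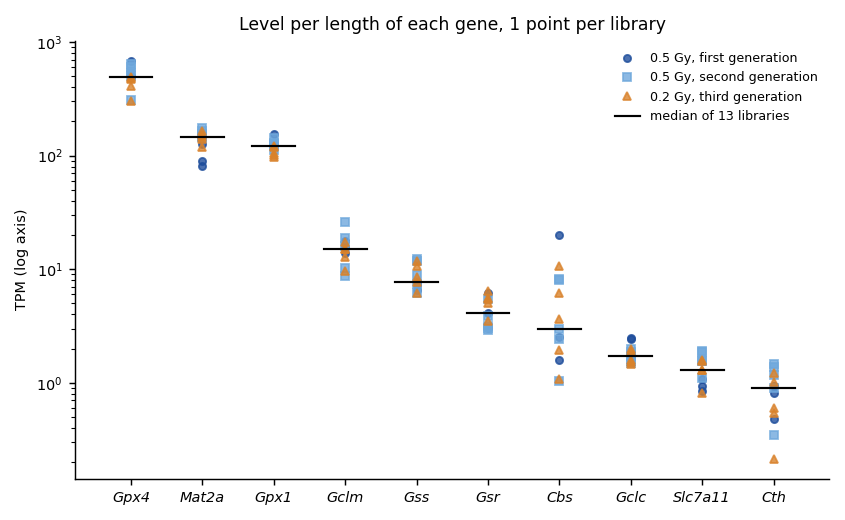
TPM on a log axis for each gene, with 1 point per library and a line at the median of 13 libraries. Gpx4, Mat2a and Gpx1 lie at 80.5 TPM or above in all libraries, Gclm between 8.77 and 26.2 TPM, and Cth lowest at a median of 0.903 TPM.

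The TPM of 4 genes depended on transcripts not annotated as protein-coding. Over protein-coding transcripts alone, a sum chosen after the data were seen, the median of Gpx4 was 30.1 instead of 492 TPM. Of its reads, 31.6% to 48.5% were assigned to transcripts with a retained intron. Mat2a was then at 88.6 TPM, Cth at 0.417 TPM and Cbs at 0.610 TPM, while Gpx1 stayed at 121 TPM, so that Gpx1 stood first and Gpx4 after Mat2a, and Cbs stood below Slc7a11, which was then at 0.972 TPM. For Mat2a, 11.7% to 16.1% of the reads lay on transcripts annotated for nonsense-mediated decay. The reads are short, and the division of reads between transcripts of a gene is an estimate.

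Gpx4 also shares sequence with other genes. Of the distinct 30-base sequences of its transcripts, 39.2% occurred in another gene, most of them in the processed pseudogene Gpx4-ps2, which was itself assigned 57.0 to 128 CPM. Summed with this copy, Gpx4 was at 232 ± 75.8 CPM early and 233 ± 13.3 CPM late at 0.5 Gy (SD, n = 4 each). The copy took 30.9% to 40.5% of the sum at 0.5 Gy and 41.8% to 56.2% at 0.2 Gy. Gss overlaps Acss2 on the opposite strand and shares 779 of its 6008 distinct 30-base sequences with other genes, and without stated strand information their reads cannot be told apart there. Shared sequences made up 19.9% for Mat2a, 6.52% for Cbs, 7.06% for Gclm, 4.58% for Slc7a11, 0.0725% for Cth and 0 for Gclc, Gsr and Gpx1.

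The upstream sequences of the 2 genes whose windows held a motif searched here, and of Cbs, are shown to give the regulatory context of the cystine transporter, the ligase modifier and the first transsulfuration enzyme. They are the 250 bases before the RefSeq start on GRCm38.p6, written 5′ to 3′ on the strand of the gene, with matches in capitals. The antioxidant response element core (TGACNNNGC), to which NRF2 binds with small MAF proteins, and the C/EBP-ATF composite core (TGATGNAA), a site of ATF4 with C/EBP partners, were searched on both strands.
Slc7a11, chr3:50443614-50443863, minus strand: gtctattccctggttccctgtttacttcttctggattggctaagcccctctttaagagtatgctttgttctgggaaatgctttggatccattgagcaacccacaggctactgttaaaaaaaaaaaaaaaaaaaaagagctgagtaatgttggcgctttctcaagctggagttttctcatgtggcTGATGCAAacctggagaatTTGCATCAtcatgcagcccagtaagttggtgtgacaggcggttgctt
Gclm, chr3:122245307-122245556, plus strand: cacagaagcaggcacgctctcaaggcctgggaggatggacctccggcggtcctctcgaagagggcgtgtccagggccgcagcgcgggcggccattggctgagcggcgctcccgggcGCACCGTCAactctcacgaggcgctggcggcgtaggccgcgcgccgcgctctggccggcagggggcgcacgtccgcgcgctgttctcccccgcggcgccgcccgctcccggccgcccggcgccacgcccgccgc
Cbs, chr17:31637206-31637455, minus strand: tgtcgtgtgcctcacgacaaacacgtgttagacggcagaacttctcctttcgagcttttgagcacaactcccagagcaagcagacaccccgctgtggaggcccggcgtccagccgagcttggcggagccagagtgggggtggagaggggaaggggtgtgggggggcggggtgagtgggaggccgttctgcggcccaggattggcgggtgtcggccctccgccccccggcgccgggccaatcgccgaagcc
Slc7a11 held 2 matches of the composite core, at -66 to -59 on the strand of the gene and at -47 to -40 on the other strand, where 3.45% of 32851 promoters hold at least 1. Gclm held 1 match of the antioxidant response core, at -134 to -126 on the other strand, where 10.2% of promoters do. RefSeq windows were found for 7 of the 10 genes, and those of Cbs, Gss, Mat2a, Gpx1 and Gpx4 held neither sequence, which says only that these letters are not in these windows.

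The first question was whether the genes differed in the hours after 0.5 Gy. The 4 libraries of 2.5, 4 and 6 h (late) were set against the 4 of 0 and 1 h (early). In this comparison 0.128% of 22588 genes were called and 0 of the 10. At an unadjusted p under 0.05 there were 3 of the 10, Cth, Gss and Slc7a11, beside 9.06% of all genes, and the Wald test of DESeq2 gave the same 3 and called none. Without any 1 of the 8 libraries this number was between 0 and 2, and it was 0 when the library of 2.5 h, replicate 2 of 0 h or replicate 2 of 4 h was left out. The late and early libraries overlapped for each of the 10, where 5.36% of all genes did not overlap. Each side joins libraries of several times, which are no replicates of 1 condition. The early side joins unirradiated libraries of 0 h with irradiated libraries of 1 h.

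The genes follow in the order of the pathway, on GRCm38. Mat2a (chr6:72432799-72439558, minus strand) was at 383 ± 79.3 CPM early and 426 ± 14.3 CPM late (SD, n = 4), with a log2 fold change of 0.13 ± 0.17 (SE). Its spread at 0 h, from 323 to 481 CPM, covered all late libraries, which lay between 409 and 443 CPM.

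Cbs (chr17:31608894-31637238, minus strand), which condenses homocysteine with serine, had 10.6 and 3.83 CPM in the replicates of 0 h, from 262 and 58 estimated reads. At 1 h it had 2.32 and 2.35 CPM, and at 4 h 1.48 and 5.29 CPM. The 2.5 h library had 3.41 CPM and the 6 h library 2.35 CPM. Replicate 1 of 0 h stood above all the others, and the remaining 3 early libraries lay within the late range. The log2 fold change was -0.64 ± 0.56 (SE; adjusted p = 0.766), and it became 0.12 without replicate 1 of 0 h. At 0 h and at 4 h the replicates differed by -1.45 and 1.79 on the log2 scale, second minus first generation, in opposite directions and by more than the late minus early difference.

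Cth (chr3:157894248-157925077, minus strand), which splits cystathionine to give cysteine, had 3.88 and 1.72 CPM in the replicates of 0 h and 2.12 and 0.947 CPM in those of 1 h. It had 3.60 CPM at 2.5 h, 3.54 and 4.71 CPM at 4 h, and 5.33 CPM at 6 h, the highest of all 13 libraries. All late libraries lay above 3 of the 4 early ones, and only replicate 1 of 0 h reached into the late range. The log2 fold change was 0.96 ± 0.44 (SE; adjusted p = 0.548), and it lay between 0.73 and 1.42 when 1 library at a time was left out. The counts were low, between 25 and 141 estimated reads per library at 0.5 Gy.

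Slc7a11 (chr3:49892526-50443614, minus strand), the cystine transporter, had 35.4 and 41.4 CPM at 0 h and 25.2 and 32.9 CPM at 1 h. Late, it had 25.4 CPM at 2.5 h, 23.7 and 23.9 CPM at 4 h, and 28.4 CPM at 6 h. Both 4 h libraries were below all early ones, and the other two were above replicate 1 of 1 h. Its log2 fold change was -0.43 ± 0.19 (SE; adjusted p = 0.538), between -0.55 and -0.30 without 1 library at a time.

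The ligase subunits were not tested against each other, and neither was called. Gclm (chr3:122245557-122270732, plus strand), the modifier subunit, had 63.9 and 55.2 CPM at 0 h, 43.9 and 36.3 CPM at 1 h, and 35.2, 51.8, 31.7 and 28.6 CPM in the late libraries of 2.5, 4, 4 and 6 h. Of the late libraries, 3 were below all early ones, and replicate 1 of 4 h was above both of 1 h. The log2 fold change was -0.46 ± 0.24 (SE; adjusted p = 0.611). Gclc, the catalytic subunit, was at 19.7 ± 6.56 CPM early and 19.5 ± 5.13 CPM late (SD, n = 4), with both its lowest and its highest library, 13.3 and 28.7 CPM, at 0 h. The ratio of Gclm to Gclc in CPM ran from 1.47 in replicate 2 of 4 h to 4.15 in replicate 2 of 0 h. CPM does not correct for length, so this ratio compares libraries only and gives no proportion of the subunits.

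Gss (chr2:155563181-155592810, minus strand), which adds glycine to complete glutathione, had 26.3 and 16.4 CPM at 0 h and 24.6 and 25.1 CPM at 1 h. It had 37.3 CPM at 2.5 h, 24.1 and 43.7 CPM at 4 h, and 30.1 CPM at 6 h. Of the late libraries, 3 were above all early ones and replicate 1 of 4 h was below 3 of them. Its log2 fold change was 0.53 ± 0.22 (SE; adjusted p = 0.500), between 0.39 and 0.67 without 1 library at a time. All 3 of the higher late libraries were of the second generation. Within the first generation, the late library had 24.1 CPM beside 26.3 and 24.6 CPM early, and within the second, the late libraries had 30.1 to 43.7 CPM beside 16.4 and 25.1 CPM early.

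Gsr and the peroxidases, which use or restore glutathione, differed by less than the early spread. Gsr, glutathione reductase, was at 31.8 ± 12.9 CPM early and 29.9 ± 8.31 CPM late. Gpx1 was at 189 ± 22.7 and 170.0 ± 17.3 CPM, and Gpx4 at 141 ± 44.8 and 157 ± 11.1 CPM (SD, n = 4 for each). The log2 fold changes were -0.10, -0.16 and 0.14.

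**Figure D2:**
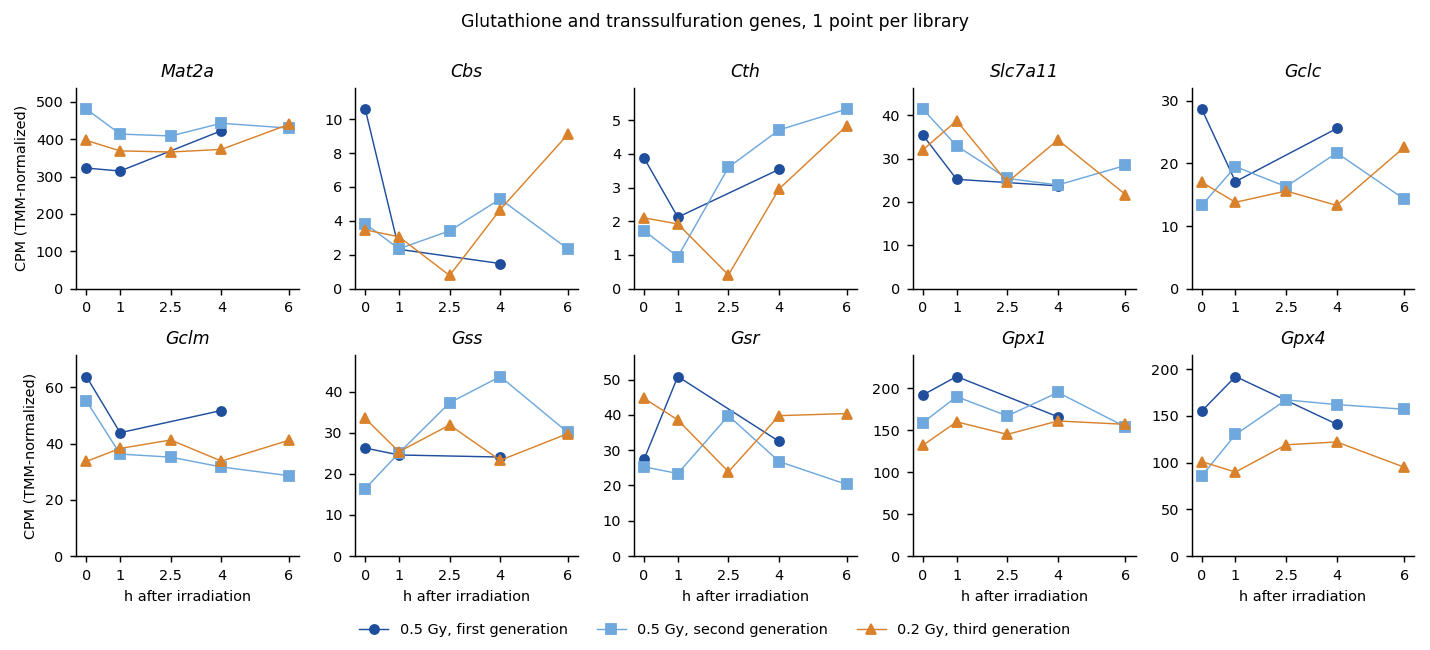
CPM of each gene against hours after irradiation, 1 point per library, with lines joining libraries of one dose and generation. The replicates of 0 h are far apart for Cbs (10.6 and 3.83 CPM) and close for Gclm (63.9 and 55.2 CPM), and Cth is highest at 6 h at 0.5 Gy (5.33 CPM).

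Each time point was also compared with 0 h at 0.5 Gy, in a model of the 8 libraries in which the spread for the single libraries at 2.5 and 6 h came from the pairs at the other times. None of 28468 genes was called at 1, 2.5, 4 or 6 h (0% each), and so none of the 10. An unadjusted p under 0.05 was reached by 3.98%, 5.59%, 5.82% and 5.94% of all genes, and by 0, 0, 1 and 1 of the 10. These were Slc7a11 at 4 h, with a log2 fold change of -0.69 ± 0.30 (SE; adjusted p = 0.847), and Gclm at 6 h, with -1.04 ± 0.41 (SE; adjusted p = 0.826). Cbs had a log2 fold change of -1.63 ± 0.73 at 1 h (SE; adjusted p = 1) and -1.59 ± 0.93 at 6 h (SE; adjusted p = 0.861). Without replicate 1 of 0 h these became -0.76 and -0.72. By DESeq2 with a beta prior, Cbs had an unadjusted p under 0.05 at 1 and 6 h, Slc7a11 at 4 h and Gclm at 6 h, and again none of the 10 was called. All 4 comparisons share the 2 libraries of 0 h, where Cbs and Gclm were both highest in replicate 1.

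The second question was whether the lower dose gave the same course. At 0.2 Gy the libraries of 4 and 6 h were set against those of 0 and 1 h, in a fit with both doses. Of 28162 genes, 0.0462% were called and 0 of the 10, and an unadjusted p under 0.05 was found for 7.29% of all genes and for 0 of the 10. Groups of 2 against 2 did not overlap for Cbs and Cth, where 46.6% of all genes did not.

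Cbs had 3.47, 3.06, 0.775, 4.67 and 9.10 CPM in time order, and Cth had 2.10, 1.92, 0.406, 2.96 and 4.83 CPM. Both were lowest at 2.5 h, with 21 and 11 estimated reads, and highest at 6 h. The log2 fold change was 1.05 ± 0.76 (SE; adjusted p = 0.789) for Cbs and 0.93 ± 0.59 (SE; adjusted p = 0.760) for Cth. At 0.5 Gy, where 2.5 h was counted as late, the values were -0.64 and 0.96. With 2.5 h counted as late at 0.2 Gy as well, Cbs had 0.54 and Cth 0.41, and without the 6 h library they had 0.49 and 0.54. With sums scaled by transcript length, Cbs had -1.39 at 0.5 Gy and 1.93 at 0.2 Gy. Such sums depend on how the few reads of Cbs were divided between its transcripts.

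For the other genes the differences at 0.2 Gy were smaller. Slc7a11 had 32.0, 38.7, 24.5, 34.3 and 21.7 CPM over the 5 times, and its log2 fold change of -0.37 ± 0.29 (SE) lay beside -0.43 at 0.5 Gy. With length-scaled sums these were -0.21 and -0.09, and without the 6 h or the 4 h library the value at 0.2 Gy was -0.06 or -0.74. Gclm had 33.7, 38.3, 41.3, 33.8 and 41.2 CPM and Gss 33.5, 25.4, 31.9, 23.3 and 29.8 CPM. Their log2 fold changes, 0.03 ± 0.33 and -0.18 ± 0.31 (SE), did not have the direction seen at 0.5 Gy. For Gclc, Gsr, Gpx1, Gpx4 and Mat2a the values were 0.19, -0.08, 0.10, 0.15 and 0.06.

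**Figure D3:**
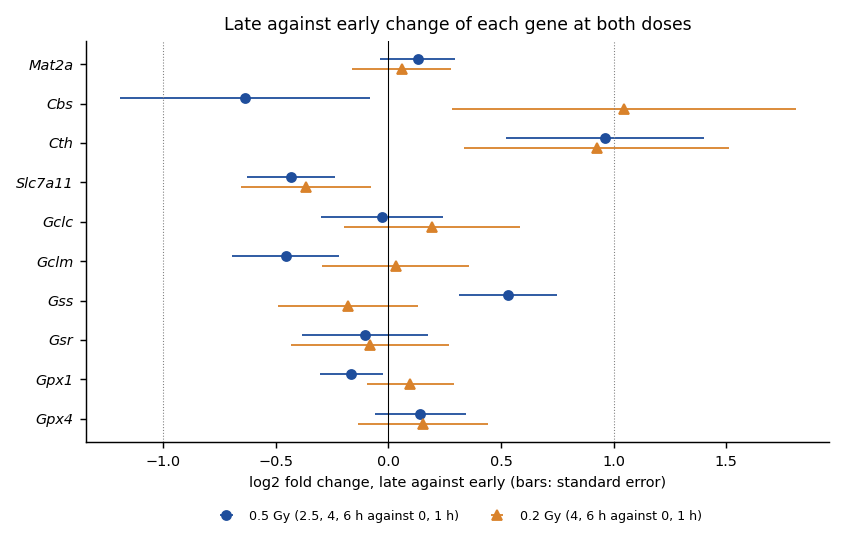
Log2 fold change of each gene, late against early, with its standard error, at 0.5 Gy (circles) and 0.2 Gy (triangles); dotted lines mark a change of 1. Late includes 2.5 h at 0.5 Gy only. Cth lies at 0.96 and 0.93, Slc7a11 at -0.43 and -0.37, and Cbs at -0.64 and 1.05, and with 2.5 h as late at 0.2 Gy too Cth would lie at 0.41.

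The difference between the doses in the late against early change was tested directly, with 4 and 6 h as late at both doses. None of the 10 was called, where 0.032% of 28162 genes were, and none had an unadjusted p under 0.05, where 8.14% did. The largest differences, 0.2 minus 0.5 Gy, were 1.72 ± 0.97 on the log2 scale for Cbs (SE; adjusted p = 0.662) and -0.66 ± 0.39 for Gss (SE; adjusted p = 0.671). The other 8 lay between -0.12 and 0.46. For Cbs the difference was 3.19 with length-scaled sums, which depend on how its few reads were divided between transcripts of unlike length. It was 1.17 with 2.5 h counted as late. It lay between 0.97, without replicate 1 of 0 h at 0.5 Gy, and 2.37, without replicate 2 of 4 h. For Gss it was -0.41 without replicate 2 of 4 h at 0.5 Gy and -0.40 without the 0 h library of 0.2 Gy.

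At the early times, 0 and 1 h, the libraries of the 0.2 Gy series were compared with those of the 0.5 Gy series. By the authors' description the 0 h libraries of both series had received no dose. In this comparison 0.121% of 28162 genes were called and 0 of the 10, and 14.9% and 0 of the 10 had an unadjusted p under 0.05. The smallest p-values belonged to the peroxidases, with log2 differences, 0.2 minus 0.5 Gy, of -0.52 ± 0.26 for Gpx4 (SE; adjusted p = 0.362) and -0.34 ± 0.17 for Gpx1 (SE; adjusted p = 0.368). With DESeq2 both had an unadjusted p under 0.05, and neither was called. Gpx4 summed with its pseudogene copy was at 260, 143, 320 and 206 CPM in the early libraries of 0.5 Gy and at 219 and 205 CPM in those of 0.2 Gy, which lay within that range. Gpx4 alone had -0.33 without replicate 1 of 1 h at 0.5 Gy. For Gpx4 the smallest adjusted p over 14 alternatives was 0.206, reached without replicate 2 of 0 h.

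Between the second and first generation at 0.5 Gy, 0.0913% of 28468 genes were called and 0 of the 10, and 9.16% and 0 of the 10 had an unadjusted p under 0.05. The smallest p was that of Mat2a, with a log2 difference of 0.36 ± 0.17 (SE; adjusted p = 0.584), which was 0.22 without replicate 1 and also without replicate 2 of 0 h. Mat2a was higher in the second generation at 0, 1 and 4 h, by 0.58, 0.39 and 0.07 on the log2 scale. For Gpx4 these differences were -0.85, -0.57 and 0.20. Cbs had a log2 difference of 0.12 ± 0.65 (SE), the average of large differences of opposite sign.

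Since Cbs passed no test over time, dose or generation, the protein-coding genes most like it were looked up among 19065, by Pearson's r of log2 CPM over the 13 libraries. They were Oog2, an oogenesin of oocytes, with r = 0.92, Gdpd2, a glycerophosphodiester phosphodiesterase, with 0.90, Gm14308 with 0.89, the zinc finger gene Zfp616 with 0.89 and Gm13023 with 0.87. The libraries share depth and tissue composition, and the values describe likeness only. Several of these genes belong to multigene families, between whose copies the reads may have been split. Without the libraries in which Cbs was highest and lowest, r was 0.80, 0.75, 0.77, 0.78 and 0.70 over 11 libraries. Among the other 9 genes of the pathway, Cth was most like Cbs with r = 0.64, which became 0.32 without the same libraries. Over the 45 pairs of the 10 genes, r ran from -0.60 for Gss and Slc7a11 to 0.64, with a median of 0.03.

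Oog2 had 29.0 and 17.5 CPM in the replicates of 0 h, 13.9 CPM in replicate 2 of 4 h and 21.1 CPM at 6 h of 0.2 Gy, and 2.77 CPM at 2.5 h of 0.2 Gy. These were the libraries in which Cbs had 10.6, 3.83, 5.29, 9.10 and 0.775 CPM. The marker genes of the tissue were then compared with Cbs in the same way, a comparison added after the likeness had been seen.

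Of the 14 granulosa markers, 4 had an r over 0.5 with Cbs, the highest Hsd17b1, an enzyme of estradiol synthesis in follicular cells, with 0.79, and of the 6 steroidogenic markers 3 had. Of the 16 oocyte markers 2 had, Bmp15, a growth factor secreted by growing oocytes, with 0.71, and Oosp1 with 0.65. Without the libraries in which Cbs was highest and lowest, r was 0.82 for Hsd17b1, 0.61 for Bmp15 and 0.48 for Oosp1, and of the 3 steroidogenic markers Hsd3b1 had 0.65, Lhcgr 0.44 and Cyp17a1 0.38. Of the 8 stroma, 6 surface epithelium, 5 endothelium, 6 leukocyte and 7 granulocyte markers none had, and of the 6 red blood cell markers 1 had. The median r of a list was 0.28 for granulosa, 0.55 for steroidogenic and -0.15 for oocyte markers. The share of all genes with an r over 0.5 with Cbs was not counted. The counts of markers therefore have no background beside them and link Cbs to no cell type.

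Hsd17b1 had 44.0 CPM in replicate 1 of 0 h, 59.5 CPM in replicate 2 of 4 h and 65.6 CPM at 6 h of 0.2 Gy, the last 2 its highest, and 21.3 CPM, its lowest, at 2.5 h of 0.2 Gy. The granulosa list summed to 2690 CPM in replicate 1 of 0 h, 2770 CPM at 6 h of 0.2 Gy and 2780 CPM in replicate 2 of 4 h, the 3 libraries with the most Cbs, and to 1720 CPM, its lowest, where Cbs was lowest. Inha made up 1330, 1540, 1380 and 625 CPM of these sums, in the same order, so that 1 gene weighed heavily in them. Other genes of the list went the other way, with an r with Cbs of -0.44 for Kitl, -0.25 for Amhr2 and -0.20 for Wnt6. No granulosa marker was at 0 in any library. The pattern of the sums was not particular to granulosa cells. The surface epithelium, granulocyte and red blood cell lists were also lowest at 2.5 h of 0.2 Gy, at 8.26, 5.50 and 857 CPM. The remaining lists were lowest in other libraries. The red blood cell list was highest in replicate 2 of 4 h (6290 CPM) and the steroidogenic list in replicate 1 of 0 h (605 CPM). The part of follicle makeup in the level of Cbs was not tested.

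**Figure D4:**
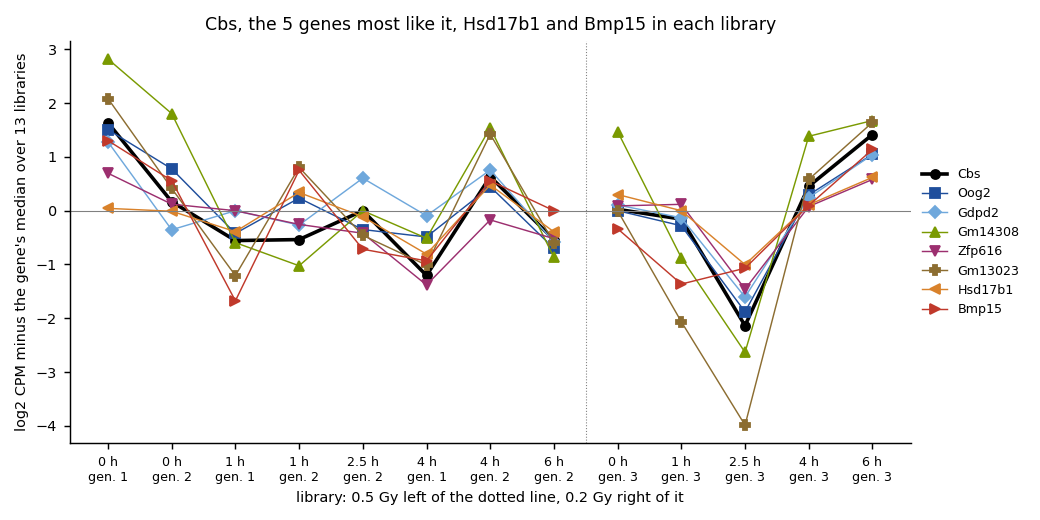
Log2 CPM minus each gene's own median over 13 libraries, for Cbs (thick black line), the 5 genes most like it, Hsd17b1 and Bmp15; gen. is the generation in the labels. Cbs and the 5 genes most like it are high in replicate 1 of 0 h (Cbs 10.6 CPM) and at 6 h of 0.2 Gy (9.10 CPM) and low at 2.5 h of 0.2 Gy (0.775 CPM), whereas Hsd17b1 lies near its median in replicate 1 of 0 h (44.0 CPM).

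The reads of Cbs lay mainly on a pair of coding transcripts of nearly the same length, Cbs-203 and Cbs-202. Together they held 47.5% to 91.2% of its reads. Cbs-203 held 91.2% at 6 h of 0.5 Gy and Cbs-202 held 90.2% at 6 h of 0.2 Gy, while the other of the pair had no or nearly no reads there. In replicate 1 of 0 h they held 58.7%, and 80.6 of its 262 estimated reads lay on a further coding transcript, Cbs-201, which had no reads in replicate 2 of 0 h. With so few reads per library the division between transcripts carries no comparison, and the main tests used the sum of reads. The length-scaled sums, an alternative, do depend on this division. The processed transcript Cbs-206, of 230 bases, had 26.1 estimated reads in replicate 1 of 0 h and 0.604 at 6 h of 0.5 Gy. Cbs had 20.1 and 1.04 TPM in these libraries.

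The other genes around the pathway were taken from 8 lists. In the late against early comparison at 0.5 Gy 1 of their genes was called, where 0.128% of all 22588 genes were. This was Sesn2, a stress-induced sestrin, from the list of the ATF4 and amino acid response, which rose from 3.72 ± 1.27 CPM early to 21.1 ± 7.89 CPM late (SD, n = 4). Its log2 fold change was 2.48 ± 0.36 (SE; adjusted p = 0.0247), and at 0.2 Gy it was 2.51 ± 0.53 (SE; adjusted p = 0.224). Sestrin genes are also known as p53 targets. The authors name Sestrin 2 among the genes expressed after irradiation, and the lists were chosen with earlier results of these data known. With Sesn2, 4 of the 11 genes of this list had an unadjusted p under 0.05 by edgeR at 0.5 Gy and were higher, beside 9.06% of all genes. At 0.2 Gy 1 had, beside 7.29%. The 10 genes other than Sesn2 were not called. The median log2 fold change of the list was 0.37 at 0.5 Gy and 0.11 at 0.2 Gy, beside -0.02 and -0.03 over all genes. At 0.2 Gy its next gene was Asns, asparagine synthetase, with -0.48.

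In the NRF2 and NADPH list, 0 of 16 genes were called at either dose. At 0.5 Gy, 4 had an unadjusted p under 0.05 and were higher and 1 was lower, beside 9.06% of all genes, and at 0.2 Gy 2 were higher, beside 7.29%. Nfe2l2, which encodes NRF2 itself, was at 166 ± 9.67 CPM early and 227 ± 18.8 CPM late at 0.5 Gy (SD, n = 4), and its late libraries all lay above the early ones, where 5.36% of all genes did not overlap. Its log2 fold change was 0.43 ± 0.13 at 0.5 Gy (SE; adjusted p = 0.387) and 0.53 ± 0.17 at 0.2 Gy (SE; adjusted p = 0.622). Tkt, transketolase of the pentose phosphate pathway, had 0.69 at 0.5 Gy and Me1, malic enzyme, 0.75 at 0.2 Gy.

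Among 17 further genes of the methionine cycle and sulfur metabolism, none was called at either dose. The smallest p belonged to Mtrr, which reactivates methionine synthase, with a log2 fold change of 0.60, and Bhmt2 with -0.95 at 0.5 Gy. At 0.2 Gy they belonged to Ahcyl1 with 0.71 and Cdo1, cysteine dioxygenase, with 0.88. The median of the list was 0.03 at 0.5 Gy and -0.14 at 0.2 Gy. Bhmt2 was near the floor, with a late mean of 0.468 CPM at 0.5 Gy.

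In the list of glutathione supply and breakdown, 0 of 19 genes tested were called at 0.5 Gy and 0 of 20 at 0.2 Gy. Chac1, which degrades glutathione inside the cell, had a log2 fold change of -1.44 ± 0.53 at 0.5 Gy (SE; adjusted p = 0.466 by edgeR) and was at 0.823 ± 0.368 CPM late (SD, n = 4). At 0.2 Gy the smallest p belonged to Ggt7 with -2.08 and the neutral amino acid transporter Slc1a4 with -0.86. Ggt7 was near the floor, with 0.926 CPM at 4 h and 0.598 CPM at 6 h of 0.2 Gy.

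The remaining lists gave no called gene either. Of the other peroxidases, transferases and glutaredoxins, 33 were tested at 0.5 Gy and 36 at 0.2 Gy, with Gpx6 (-1.42) and Gpx8 (-0.41) first at 0.5 Gy and Glrx3 (0.48) and Mgst1 (0.57) first at 0.2 Gy. Of the 17 thioredoxin, peroxiredoxin and superoxide genes, the mitochondrial peroxiredoxin Prdx3 (-0.33) and Prdx1 (-0.31) came first at 0.5 Gy and Prdx6 (0.44) and Srxn1 (-0.97) at 0.2 Gy. Of 9 genes of selenoprotein synthesis, which the peroxidases need, Sars (0.38) and Secisbp2 (0.30) came first at 0.5 Gy and Secisbp2l (0.97) and Sephs1 (0.27) at 0.2 Gy. Of the genes of lipid peroxidation and iron, 13 were tested at 0.5 Gy and 14 at 0.2 Gy, with Acsl4 (-0.48) and Alox15 (-2.06) first at 0.5 Gy and Sat1 (0.50) and Acsl4 (0.43) first at 0.2 Gy. These values are log2 fold changes, late against early. Alox15 and Gpx6 were near the floor, with late means of 0.348 and 0.440 CPM at 0.5 Gy. In the difference between doses, none of the genes of the 8 lists was called.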

How the data were processed

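Oocyte RNA was sequenced in 13 libraries, grouped by dose, time and generation as the labels give them. The authors mapped reads with salmon to Ensembl transcripts and deposited estimated counts, TPM and effective lengths per transcript and library, unnormalized between libraries. Their merged table of normalized values and their DESeq2 1.24.0 comparisons with 0 h (fold changes and p-values) were not used. Sources differ on whether the 30-base reads were single-end or paired-end.

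Estimated counts were summed per gene (GENCODE, GRCm38) and rounded; 402 of 130740 transcripts had no gene there. TMM normalization (also behind all CPM), filterByExpr and the quasi-likelihood test were run in edgeR 4.0.16 with R 4.3.3. Spread was estimated over all libraries of a fit, which leaves p-values measuring the spread between libraries, since the labels do not tie libraries to animals. The prior count was 2 for log2 CPM. The SE is the absolute log2 fold change divided by the root of F. DESeq2 1.42.0, other scalings, filters and sums, a generation block and fits without 1 library were alternatives.

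In simulated counts, 200 genes were given a log2 fold change of 2, of which the late against early test at 0.5 Gy found 135 (10 false calls among 21762 genes), 81 at 0.2 Gy (7 among 26645) and 47 in the dose difference (1 among 26650). Counting error alone covers up to 3 reads at a count of 0.

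The 10 genes and the lists were chosen with earlier results of these data known. Named are the 10, the called genes of each list or else the 2 with the smallest p at each dose, and the 5 genes most like Cbs. A single gene that this rule names is not reported here. Hsd17b1, Bmp15 and Oosp1 were named after their values were seen, as were Gpx4-ps2 and Acss2. Sequences are from RefSeq.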

Additional observations from a re-analysis of the deposited data

Results flagged for a closer look

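Gss at 0.5 Gy was flagged for a library far from the others. Among the 4 early libraries, replicate 2 of 0 h had 16.4 CPM and the other 3 lay between 24.6 and 26.3 CPM. The gap to the nearest library was 0.858 of the whole range on the log2 scale, above Dixon's critical value for 4 values. It was the only flag among 20 groups examined, where chance gives about 1 in 20. The same library had the fewest estimated reads, 15709549, and 443 CPM of granulocyte markers, whose part in this value was not tested. Without it, the log2 fold change of Gss late against early was 0.39.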

How the results depend on the processing

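None of the 10 genes was called in any of the 9 comparisons under any alternative tried, and the smallest adjusted p of any of them was 0.206. Of 1260 fold changes of these genes under alternatives, 85 had the other sign, 62 of them in fits without 1 library and none of them called in either fit. The cause was not tested. Late against early at 0.5 Gy, Gclc became 0.02 without the filter, 0.05 without the 2.5 h library, and 0.11 with the generation as replicate block, where Gsr became 0.06. At 0.2 Gy, upper quartile scaling gave -0.07 for Gclm, -0.01 for Gpx1 and -0.04 for Mat2a, and length-scaled sums gave -0.35 for Gclm, -0.11 for Gpx4 and -0.21 for Mat2a. In the dose difference, upper quartile scaling gave -0.02 for Slc7a11 and -0.04 for Gpx4, length-scaled sums gave 0.22 for Cth, -0.09 for Slc7a11 and -0.18 for Gpx4, the block gave -0.07 for Gpx4, and counting 2.5 h as late gave -0.19 for Gsr. Mat2a between doses at 0 and 1 h was -0.01 with DESeq2 size factors and -0.03 with DESeq2; at 2.5 h it was -0.02, -0.14 with the block and -0.01 with the beta prior, and at 6 h -0.04 with the block.

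When 1 library at a time was left out, these fold changes crossed 0. The range was, late against early at 0.5 Gy, Cbs -1.0 to 0.12, Gclc -0.18 to 0.22, Gsr -0.27 to 0.21 and Gpx4 -0.02 to 0.33. Late against early at 0.2 Gy, Gclc -0.23 to 0.51, Gclm -0.11 to 0.16, Gss -0.36 to 0.09, Gsr -0.18 to 0.08, Gpx4 -0.05 to 0.33 and Mat2a -0.06 to 0.17. In the dose difference, Cth -0.56 to 0.15, Gclc -0.28 to 0.44, Gsr -0.13 to 0.37, Slc7a11 -0.35 to 0.36, Gpx4 -0.19 to 0.21 and Mat2a -0.27 to 0.01. Between doses at 0 and 1 h, Cbs -0.75 to 0.24, Cth -0.33 to 0.37, Slc7a11 -0.05 to 0.26 and Mat2a -0.08 to 0.20. At 1 h against 0 h, Gclc -0.63 to 0.42, Gss -0.07 to 0.55, Gsr -0.19 to 0.92 and Mat2a -0.45 to 0.19. At 2.5 h against 0 h, Cth -0.09 to 1.03, Gclc -0.79 to 0.26, Gpx1 -0.18 to 0.03 and Mat2a -0.28 to 0.36. At 4 h against 0 h, Gclc -0.26 to 0.80, Gpx1 -0.09 to 0.15, Gpx4 -0.01 to 0.79 and Mat2a -0.19 to 0.45. At 6 h against 0 h, Gclc -0.96 to 0.10 and Mat2a -0.17 to 0.46. Between generations, Cbs -0.71 to 0.92, Gss -0.30 to 0.44 and Gpx1 -0.20 to 0.02.

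Counts of all genes called moved more. Late against early at 0.5 Gy, 29 genes became 58 without the filter, 251 with DESeq2, 18 with the generation as replicate block, where Cth and Slc7a11 but not Gss had an unadjusted p under 0.05, and 14 without 2.5 h. At 0.2 Gy, 13 became 32, 147 with DESeq2, 28 with 2.5 h as late and 2 in a fit of that dose alone; in the dose difference 9 became 22, 128 and 20. Against 0 h, 0 became 30, 56, 80 and 78 without the filter and 20, 85, 125 and 137 with DESeq2 and its beta prior at 1, 2.5, 4 and 6 h, and 0, 1, 6 and 7 with the block. Between generations 26 became 453 without the filter and 282 with DESeq2, and between doses at 0 and 1 h 34 became 71 and 477. Without 1 library at a time, the first 3 of these counts ran from 10 to 37, 1 to 18 and 0 to 13, and those between generations from 25 to 186. Differences between the replicates correlated at 0.132, 0.0787 and 0.111 over 28162 genes for 0 and 1 h, 0 and 4 h, and 1 and 4 h. Libraries of the same generation thus deviated together only weakly, which is no more than a hint from the data. The labels do not say that a generation was a batch. The sum over protein-coding transcripts, added after the data were seen, moved median TPM from 492 to 30.1 for Gpx4, from 145 to 88.6 for Mat2a, from 2.98 to 0.61 for Cbs and from 0.903 to 0.417 for Cth.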
